A study of Mus musculus with 12 samples.

Results

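The 4 ligand genes and 2 receptor genes of the platelet-derived growth factor (PDGF) system, Pdgfa, Pdgfb, Pdgfc, Pdgfd, Pdgfra and Pdgfrb, were followed across mouse pancreatic islets and cells sorted from them. They were taken by gene symbol, and are 6 of the 22711 genes in the table. RNA was sequenced in 12 libraries, 3 in each of 4 groups, all from mice carrying RIP-rtTA and TetO-VEGF-A. In these mice the rat insulin promoter drives the rtTA activator in beta cells, and doxycycline (Dox) then switches on a VEGF-A transgene there. CD11b-sorted macrophages and CD31-sorted endothelial cells were taken by flow cytometry from dispersed islets of mice given Dox for 1 week. Whole islets came from mice given Dox for 1 week (Dox islets) and from mice of the same genotype without Dox (No Dox islets), so the control islets carry both transgenes too. The labels give no age, sex or pooling of animals, and do not say that libraries came from separate animals. The p-values therefore measure the spread between these samples, which may be technical. Both fractions were sorted after Dox, so no sorted cells without Dox could be set beside them, and sorted cells also differ from whole islets in having been dispersed and sorted.

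PDGF ligands are secreted dimers that bind a pair of receptor tyrosine kinases on mesenchymal cells. In developing blood vessels, endothelial cells release PDGF-B, and pericytes and smooth muscle cells that carry PDGFR-β are recruited by it. PDGF-A and PDGF-C act mainly through PDGFR-α, the receptor of fibroblasts and other stromal cells. PDGF-C and PDGF-D are secreted as latent proteins that proteases must cut before they bind.

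Each fraction carried the markers of its label. The summed signal of 10 macrophage markers ran from 338063 to 357881 in macrophages, against 229 to 657 in endothelial cells, where C1qa was at the floor of the scale in all 3 libraries. The sum of 10 endothelial markers ran from 1737 to 2294 in macrophages, against 264642 to 295943 in endothelial cells. The fractions were not free of other cells' RNA. The sum of 6 acinar markers was 24187, 358862 and 1304 in macrophages and 4815, 106051 and 262 in endothelial cells. Dox islets held 88712 to 263046, so replicate 2 of each fraction reached or passed the range of whole Dox islets. Values are the authors' normalised expression signal, a linear scale with a floor of 1, and the signal summed to between 17635776 and 25226447 per library. Read depth is unknown, so values carry no counting interval. Deviations from the group mean rose with the GC content of transcripts in Dox islet replicate 1 and No Dox islet replicate 2 (Spearman's rho 0.61 and 0.67) and fell with it in the other 4 islet libraries (rho between -0.48 and -0.33). The library numbers in the table's header put replicate 1 of both islet groups in one series and replicates 2 and 3 in another. Macrophage replicates 1 and 2 and all endothelial libraries have numbers of the first series, and macrophage replicate 3 has one of the second. The number of endothelial replicate 3 lies apart from the others of its series. Series and group thus cannot be fully told apart in comparisons of sorted cells with islets. Scaling to length is not stated, so the level of 1 gene cannot be read against that of another. Each gene, sum or ratio was therefore compared only with itself across groups, and the sign of a ratio has no meaning.

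**Figure D1:**
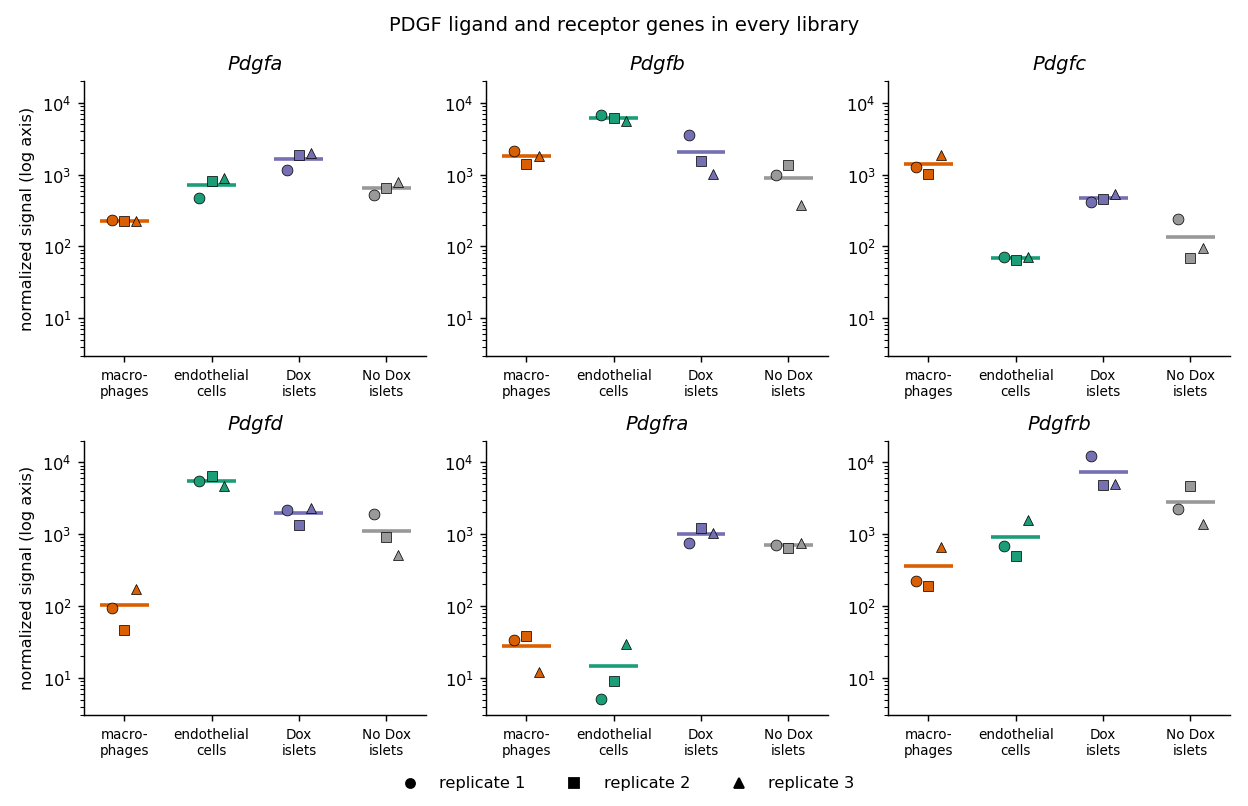
Normalised signal (log10 axis) of the 6 genes in each of the 12 libraries, 1 panel per gene, with groups in the order macrophages, endothelial cells, Dox islets and No Dox islets; points are libraries and bars are group means. Pdgfb and Pdgfd are highest in endothelial cells, Pdgfc in macrophages, and both receptors in whole islets.

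The ligands were divided between the fractions. Pdgfb and Pdgfd were higher in endothelial cells and Pdgfc was higher in macrophages. Promoter sequences are shown for Pdgfc and Pdgfd, the ligands that differed most between the fractions and in opposite directions. They are RefSeq sequences of build GRCm38.p6, not the mm9 build of the expression table, and run from 250 bases before the annotated start for 270 bases on the plus strand. They cover chr3:81036166-81036435 for Pdgfc and chr9:6168236-6168505 for Pdgfd. Capitals mark matches, searched on both strands, to the TATA box TATAAA, the Sp1 box GGGCGG, the ETS core AGGAAG or the AP-1 site TGACTCA.
Pdgfc promoter: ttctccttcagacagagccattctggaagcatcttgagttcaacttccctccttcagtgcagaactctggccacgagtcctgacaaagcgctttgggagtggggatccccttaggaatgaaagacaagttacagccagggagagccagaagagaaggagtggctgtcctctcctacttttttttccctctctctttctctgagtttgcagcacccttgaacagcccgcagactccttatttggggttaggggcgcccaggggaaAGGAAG
Pdgfd promoter: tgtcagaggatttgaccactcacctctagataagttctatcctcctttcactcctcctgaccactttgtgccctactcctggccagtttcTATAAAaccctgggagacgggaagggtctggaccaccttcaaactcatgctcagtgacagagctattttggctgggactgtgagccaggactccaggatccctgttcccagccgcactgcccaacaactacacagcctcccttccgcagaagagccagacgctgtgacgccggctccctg
The Pdgfd window held 1 TATAAA, 160 bases before the start, and the Pdgfc window held 1 AGGAAG, starting at position 15 from it. Among 32851 promoter windows of this length, TATAAA occurred in 12.9% and the ETS core in 31.8%. The Sp1 box occurred in 34.1% and the AP-1 site in 4.77%, and both were without a match in the Pdgfc and Pdgfd windows.

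Pdgfb, which encodes PDGF-B (mm9 chr15:79826330-79845238, minus strand, ENSMUSG00000000489), had a signal of 2128, 1408 and 1833 in macrophages, against 6695, 6051 and 5583 in endothelial cells. Every endothelial library lay above every macrophage library. The log2 difference was -1.79 ± 0.16 (SE; limma, adjusted p = 2.74e-05). Dox islets held 3601, 1528 and 1027. Endothelial cells lay above all of them, with a log2 difference of 1.77 ± 0.40 (adjusted p = 0.00926). The value in macrophages overlapped that of Dox islets, with a log2 difference of -0.01 ± 0.41 (adjusted p = 0.981) that turned to 0.026 under quantile normalisation. The order of group means was endothelial cells, Dox islets, macrophages and No Dox islets.

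Pdgfd, which encodes PDGF-D (mm9 chr9:6168612-6378843, plus strand, ENSMUSG00000032006), showed the widest difference of the 6 genes between the fractions. Its signal was 92.8, 46.5 and 173 in macrophages, against 5416, 6441 and 4633 in endothelial cells. All endothelial libraries were higher by more than an order of magnitude. The log2 difference was -5.89 ± 0.42 (limma, adjusted p = 7.18e-06), or 59.4-fold lower in macrophages on the scale of signal + 1. Dox islets held 2181, 1358 and 2292, between the fractions and without overlap with either. Against Dox islets the log2 difference was -4.37 ± 0.47 in macrophages (adjusted p = 6.11e-05) and 1.52 ± 0.24 in endothelial cells (adjusted p = 0.00138).

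Pdgfc, which encodes PDGF-C (mm9 chr3:80840338-81017962, plus strand, ENSMUSG00000028019), ran the other way. Its signal was 1274, 1014 and 1891 in macrophages, against 71.9, 63.9 and 71.1 in endothelial cells. The log2 difference was 4.27 ± 0.27 (limma, adjusted p = 3.21e-06), or 19.3-fold on the scale of signal + 1. Dox islets held 409, 458 and 537, again between the fractions, with a log2 difference of 1.53 ± 0.28 in macrophages (adjusted p = 0.00153) and -2.74 ± 0.28 in endothelial cells (adjusted p = 0.000134). Pdgfc overlaps the antisense gene Gm16000, which was not analysed here, and the labels do not say whether counting used strand.

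Pdgfa, which encodes PDGF-A (mm9 chr5:139451968-139473324, minus strand, ENSMUSG00000025856), was lowest in macrophages. Its signal was 233, 226 and 224 there, against 475, 805 and 894 in endothelial cells, with a log2 difference of -1.62 ± 0.26 (limma, adjusted p = 0.000870). Dox islets held 1146, 1854 and 1976 and lay above both fractions. Against Dox islets the log2 difference was -2.82 ± 0.28 in macrophages (adjusted p = 3.86e-05) and -1.20 ± 0.31 in endothelial cells (adjusted p = 0.0163). The endothelial call was lost without Dox islet replicate 2 (adjusted p = 0.0694), Dox islet replicate 3 (0.0910) or endothelial replicate 1 (0.0611). An antisense gene, 6330403L08Rik, overlaps Pdgfa.

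Both receptors were lower in the sorted fractions than in Dox islets. Pdgfrb, which encodes PDGFR-β (mm9 chr18:61204804-61244715, plus strand, ENSMUSG00000024620), had a signal of 223, 188 and 664 in macrophages and 676, 502 and 1572 in endothelial cells. Replicate 3, whose library number lies apart in each fraction, was the highest library of both fractions, and the fractions overlapped. Dox islets held 12325, 4784 and 4909, above every sorted library. The log2 difference from Dox islets was -4.44 ± 0.52 in macrophages (limma, adjusted p = 9.31e-05) and -3.03 ± 0.48 in endothelial cells (adjusted p = 0.00151). Between the fractions it was -1.42 ± 0.56 (limma, adjusted p = 0.0589). With the replicate number as a block the adjusted p was 0.000344, though the labels do not say that these numbers mark pairs. Without the block the call was gained on leaving out macrophage replicate 3 (adjusted p = 0.00367) or endothelial replicate 2 (0.0437). Leaving out any of the other 4 libraries gave an adjusted p of 0.0896 to 0.181, and over all 6 the log2 difference ran from -1.98 to -0.94 (without endothelial replicate 3). Pericyte and smooth muscle markers had the same order of these groups, but not the same order of replicates 1 and 2 within a fraction. The sum of 12 such markers was 3863, 4260 and 14730 in macrophages and 18023, 18095 and 65562 in endothelial cells, likewise highest in replicate 3, against 205275 to 438690 in Dox islets. None of the 12 was at the floor in all libraries of a group. The part of these cells in the Pdgfrb signal of the fractions was not tested.

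Pdgfra, which encodes PDGFR-α (mm9 chr5:75548316-75594229, plus strand, ENSMUSG00000029231), was near the bottom of the scale in sorted cells. Its signal was 33.2, 38.5 and 12.1 in macrophages, 5.12, 9.03 and 29.7 in endothelial cells and 743, 1231 and 1022 in Dox islets. The commonest value above the floor, whose multiples recur, ran from 1.22 to 6.05 by library, and the macrophage values were 2.0 to 20.3 and the endothelial values 2.50 to 9.50 multiples of it. The fractions overlapped, with a log2 difference of 1.08 ± 0.71 (limma, adjusted p = 0.231). The log2 difference from Dox islets was -5.23 ± 0.51 in macrophages and -6.31 ± 0.58 in endothelial cells. Pdgfra passed the filter on low values there only because it is high in Dox islets, so these differences are descriptions without p-values. The sizes rest on values near the floor: with a pseudocount of 16 they were -4.56 in macrophages and -5.10 in endothelial cells, and on leaving out 1 library they ran from -5.53 to -4.74 in macrophages and from -6.97 to -5.80 in endothelial cells. Fibroblast markers, 8 in all, summed to between 1620 and 4248 in macrophages, 1267 and 3845 in endothelial cells and 48724 and 113951 in Dox islets.

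All 6 genes passed the filter on low values in every comparison, but Pdgfra did so against Dox islets only because it is high in Dox islets, and its place in those counts is a description. In macrophages 1 was higher and 3 were lower than in endothelial cells, where 27.7% of 13726 genes were called higher and 31.5% lower. Against Dox islets, 1 was higher and 4 were lower in macrophages, where 21.3% of 14479 genes were called higher and 31.4% lower. In endothelial cells 2 were higher and 4 lower than in Dox islets, where 11.5% of 14218 genes were called higher and 21.6% lower. With calls this common, the sizes of the differences say more than their number. The same Dox islets stand in both comparisons with islets and in the one with No Dox islets, so these results are not independent.

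**Figure D2:**
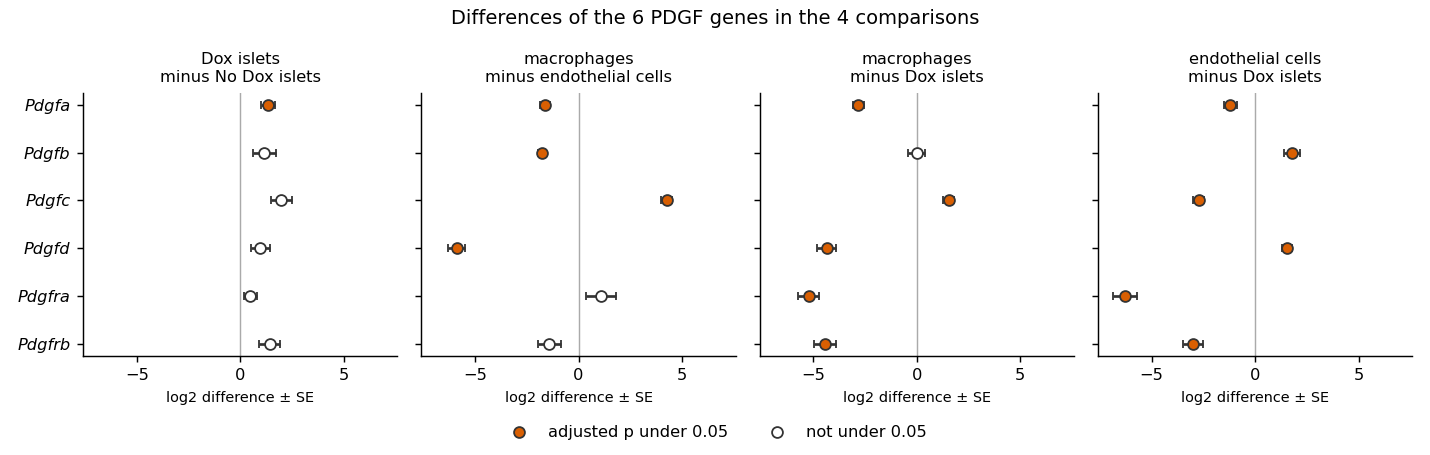
Log2 difference ± SE of the 6 genes in the 4 comparisons, from limma on log2(signal + 1) of 3 libraries a group; filled points passed an adjusted p of 0.05 over all genes. In islets all 6 lie above 0 and Pdgfa is filled. In endothelial cells against Dox islets Pdgfb and Pdgfd lie above 0 and the other 4 below. The Pdgfra points against Dox islets are descriptions.

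Dox islets were set against No Dox islets to ask how the islet changes when Dox switches on VEGF-A in beta cells. No group was given Dox without the transgenes, so the drug itself and VEGF-A cannot be told apart. Pdgfa rose, and the other 5 genes had positive differences that did not pass the test. In bulk islets, a change in the number of cells of a type and a change in RNA per cell cannot be told apart. Pdgfa held 1146, 1854 and 1976 in Dox islets, against 513, 647 and 793 in No Dox islets. The groups did not overlap, and the log2 difference was 1.33 ± 0.34 (limma, adjusted p = 0.0494). The call stood close to the threshold, and 11 of 16 alternatives lost it, the replicate block among them (adjusted p = 0.0828, limma). It was lost on leaving out Dox islet replicate 2 (adjusted p = 0.231), Dox islet replicate 3 (0.201), or No Dox islet replicate 1 (0.120), 2 (0.0665) or 3 (0.0580). The antisense gene 6330403L08Rik held 281, 287 and 310 in Dox islets, against 193, 210.3 and 189 in No Dox islets, without overlap, and its part in the Pdgfa signal was not tested.

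Pdgfc held 409, 458 and 537 in Dox islets, against 240.3, 69.7 and 94.8 in No Dox islets. Every Dox library was higher, and the log2 difference was 1.99 ± 0.51 (limma, adjusted p = 0.0508). Leaving out No Dox islet replicate 1 gave an adjusted p of 0.0378, and leaving out any other library 0.0714 to 0.196. Pdgfb held 3601, 1528 and 1027 in Dox islets, against 975, 1372 and 373 in No Dox islets. The groups overlapped, and the log2 difference was 1.17 ± 0.56 (adjusted p = 0.275), with 0.62 without No Dox islet replicate 3 and 0.66 without Dox islet replicate 1. Pdgfd held 2181, 1358 and 2292 in Dox islets, against 1918, 923 and 513 in No Dox islets. These groups overlapped as well, with a log2 difference of 0.97 ± 0.47 (adjusted p = 0.275) that ran from 0.51 (without No Dox islet replicate 3) to 1.46 (without No Dox islet replicate 1).

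Pdgfrb held 12325, 4784 and 4909 in Dox islets, against 2254, 4662 and 1405 in No Dox islets. The groups did not overlap, though the lowest Dox library stood only just above the highest No Dox library, and the log2 difference was 1.43 ± 0.50 (limma, adjusted p = 0.130). Without No Dox islet replicate 2 the call was gained (adjusted p = 0.0336), and without any other library the adjusted p was 0.181 to 0.290, with a log2 difference down to 0.98 (without Dox islet replicate 1). Pdgfra held 743, 1231 and 1022 in Dox islets, against 701, 644 and 762 in No Dox islets, with overlap and a log2 difference of 0.48 ± 0.32 (adjusted p = 0.459).

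Of the 6 genes 1 passed the test, where 4.33% of 14443 genes passed in the higher direction, and 3 had higher groups without overlap, where 15.7% of genes did. The median log2 difference of the 6 was 1.25, against 0.11 over all genes tested. Pdgfb and Pdgfrb, with transcript GC contents of 60.4 and 54.9%, were highest of their group in the libraries whose signal rose with GC, Dox islet replicate 1 and No Dox islet replicate 2. Between those libraries alone the log2 differences were 1.39 for Pdgfb and 1.40 for Pdgfrb, and among the other 4 islet libraries they were 1.05 and 1.45. Within library number series, Pdgfa differed by 1.16 in replicate 1 and by 1.42 over replicates 2 and 3. The same values were 1.88 and 0.81 for Pdgfb, 0.76 and 2.60 for Pdgfc, and 0.19 and 1.36 for Pdgfd. For the receptors they were 0.09 and 0.68 for Pdgfra and 2.45 and 0.92 for Pdgfrb.

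Some markers of the cells known to make or answer PDGF rose in Dox islets as well, and their part in the PDGF values was not tested. The counts below stand beside 4.33% of all genes that rose and 1.41% that fell. Pericyte and smooth muscle markers, led by Rgs5, summed to between 205275 and 438690 in Dox islets, against 49125 to 131077 in No Dox islets, and 5 of 12 passed the test. Fibroblast markers summed to 48724 to 113951 in Dox islets and 16827 to 41345 in No Dox islets, with 3 of 8 passing. Endothelial markers summed to 96078 to 120784 in Dox islets and 37096 to 44195 in No Dox islets, with 7 of 10 passing. Macrophage markers summed to 13166 to 21471 in Dox islets and 4008 to 7274 in No Dox islets, with 2 of 10 passing. Beta cell markers went the other way, at 162083 to 222721 in Dox islets and 384154 to 676372 in No Dox islets, and 4 of 8 fell. Platelets store PDGF-B, and 5 platelet markers summed to 378 to 491 in Dox islets and 230 to 443 in No Dox islets, with 1 of 5 passing, Pf4, which averaged 2534 in macrophages. Acinar markers summed to 88712 to 263046 in Dox islets and 30935 to 95450 in No Dox islets, with 0 of 6 passing by limma's adjusted p and 3 under an unadjusted p of 0.05. Among the sorted libraries they were highest in replicate 2 of macrophages (358862) and of endothelial cells (106051).

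**Figure D3:**
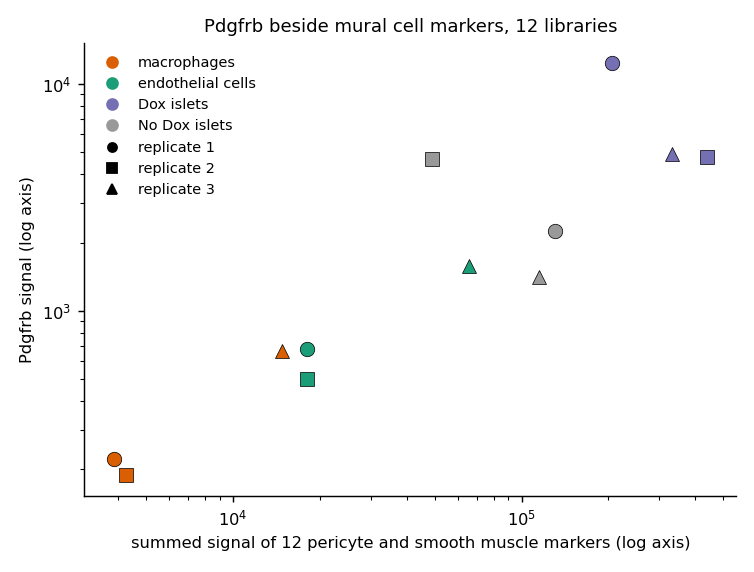
Pdgfrb signal against the summed signal of 12 pericyte and smooth muscle markers in the 12 libraries (both axes log10), with colours for groups and shapes for replicates. Dox islets lie at the upper right and macrophages at the lower left, and Dox islet replicate 1 and No Dox islet replicate 2 have the highest Pdgfrb of their groups at the lowest marker sums.

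Ratios taken within a library do not depend on library scaling. A ratio to a marker list was the log2 value of the gene minus the mean log2 value of the list's genes, so that Rgs5, which dominates the sum, counts as 1 gene of 12. For Pdgfrb over the pericyte and smooth muscle markers this log2 ratio was 2.09 ± 0.46 in Dox islets and 2.37 ± 0.49 in No Dox islets (SD, n = 3 each; two-sided exact permutation p = 0.6). That of Pdgfra to the fibroblast markers was -1.27 ± 0.07 in Dox islets and -0.49 ± 0.12 in No Dox islets, a difference of -0.78 with no overlap (exact permutation p = 0.1, the smallest that 3 against 3 allow). The fibroblast markers thus differed more between islet groups than Pdgfra did. For Pdgfb over endothelial markers it was -1.57 ± 0.73 in Dox islets and -1.06 ± 0.90 in No Dox islets (exact permutation p = 0.6). The sorted endothelial cells lay within the range of the islets, at -1.15, -1.31 and -1.26. Over platelet markers, Pdgfb stood at 5.01 ± 0.90 in Dox islets and 4.75 ± 0.37 in No Dox islets (exact permutation p = 0.8).

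Ligands were then set against their main receptors. The log2 ratio of Pdgfb to Pdgfrb was -1.89 ± 0.32 in Dox islets and -1.63 ± 0.37 in No Dox islets (SD, n = 3 each; exact permutation p = 0.5). The ratio of Pdgfa to Pdgfra was 0.72 ± 0.20 in Dox islets and -0.13 ± 0.28 in No Dox islets. This difference of 0.85 was without overlap, with an exact permutation p = 0.1, which is again the smallest possible and does not reach 0.05. In sorted cells the ratio of Pdgfb to Pdgfrb was 3.25, 2.90 and 1.46 in macrophages and 3.31, 3.59 and 1.83 in endothelial cells, above every islet library.

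**Figure D4:**
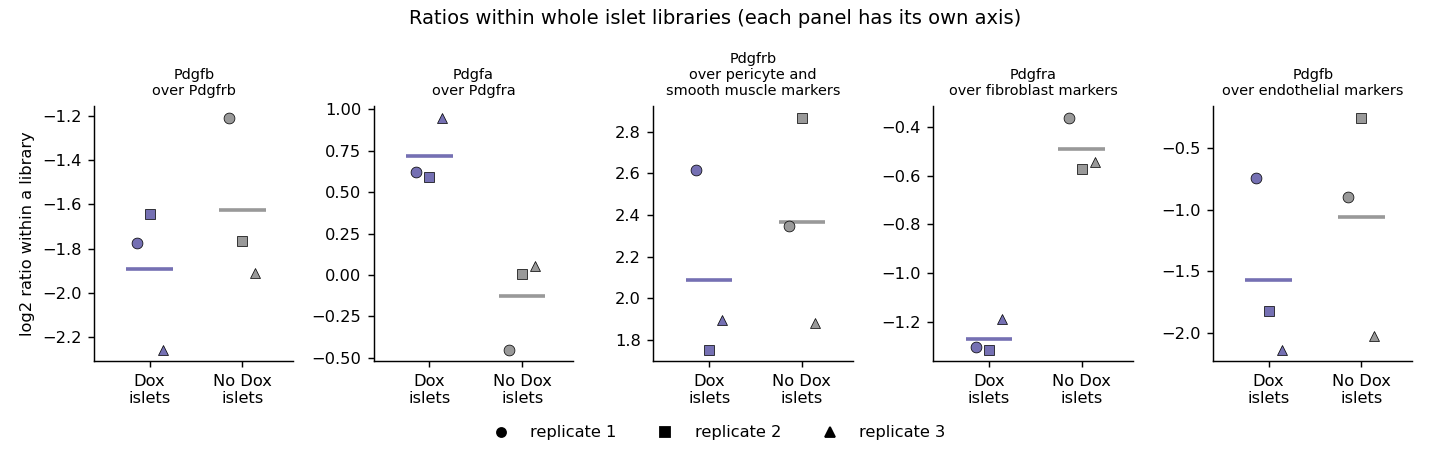
Log2 ratios within each of the 6 whole islet libraries, 1 panel per ratio with its own axis, with bars at the group means of 3 libraries. Pdgfa over Pdgfra lies higher, and Pdgfra over fibroblast markers lower, in Dox islets than in No Dox islets, and the groups overlap in the other 3 panels.

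Genes that process or bind PDGFs were followed as a list of 11. For this and the lists that follow, the share of all genes called was 4.33% higher and 1.41% lower in Dox islets against No Dox islets, and 27.7% higher and 31.5% lower in macrophages against endothelial cells. It was 21.3% higher and 31.4% lower in macrophages against Dox islets, and 11.5% higher and 21.6% lower in endothelial cells against Dox islets. In Dox islets 3 of 11 rose and 0 fell, and the median log2 difference was 1.05, against 0.11 over all genes. They were Sparc (2.36, adjusted p = 0.0124), a matrix protein that binds PDGF-B, Nrp2 (1.67, 0.0144), a co-receptor of VEGF family ligands, and Thbs1 (1.60, 0.0216), a matrix protein; all p are limma's. Plat, the protease tPA that activates PDGF-C, had a log2 difference of 1.28 (adjusted p = 0.173), and Plau, the protease uPA that activates PDGF-D, had 1.05 (adjusted p = 0.144). In macrophages against endothelial cells 2 of 10 tested rose and 6 fell, with a median of -2.76 against -0.10 over all genes. Lrp1, an endocytic receptor that associates with PDGFR-β, was higher by 6.03 and Plau by 3.30, while Sparc (-6.01) and Plat (-4.58) were lower. Pdgfc and Plau were thus higher in macrophages, and Pdgfd and Plat in endothelial cells. These are RNA levels, and activation of the ligands was not tested. Against Dox islets, 2 of 11 were higher and 8 lower in macrophages (Plau 2.79, Lrp1 2.30, Sparc -5.63, Pcsk6 -4.84), with a median of -2.37 against -0.20 over all genes. In endothelial cells 3 were higher and 2 lower than in Dox islets (Nrp2 1.09, Thbs1 0.97, Pcsk6 -4.36, Lrp1 -3.73), with a median of 0.35 against 0.004 over all genes. Pcsk6 averaged 13.7 in macrophages, 17.5 in endothelial cells and 378 in Dox islets. In both of these comparisons it passed the filter on low values only through Dox islets, so its place in the counts is a description.

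Among 23 adaptors and enzymes that act on the activated receptors, 2 rose (4.33% of all genes) and 0 fell in Dox islets, with a median log2 difference of 0.40 against 0.11 over all genes. They were Fyn (1.74, adjusted p = 0.0124, limma), a Src family kinase, and Gab1 (1.58, adjusted p = 0.0303), a docking protein. In macrophages against endothelial cells 7 were higher (27.7% of all genes) and 12 lower (31.5%), led by the kinase Src (3.45) and the scaffold Slc9a3r1 (2.87) on the one side and the kinase Yes1 (-7.28) and the phospholipase Plcg1 (-3.59) on the other. Against Dox islets, macrophages were higher in 7 and lower in 12 (Slc9a3r1 3.33, Stat5a 2.05, Yes1 -6.57, Nck2 -2.44). Endothelial cells were higher in 6 and lower in 2 (Plcg1 1.36, Fyn 1.09, Src -2.28, Pik3r1 -0.79). The medians of these 3 comparisons were -0.49, -0.76 and 0.16.

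Negative regulators showed 2 rises among 11 tested (4.33% of all genes) and 0 falls in Dox islets, with a median of 0.30 against 0.11. These were Spry1 (1.71, adjusted p = 0.0167, limma), a Sprouty inhibitor of receptor kinase signals, and the phosphatase Ptpn12 (1.64, adjusted p = 0.0250). In macrophages against endothelial cells 6 of 12 were higher (27.7% of all genes) and 4 lower (31.5%), among them the phosphatases Ptprj (5.59) and Ptpn1 (1.39) and the Sprouty genes Spry4 (-5.78) and Spry1 (-3.81). Against Dox islets 5 were higher and 5 lower in macrophages (Socs1 3.15, Ptprj 2.86, Spry2 -4.64, Spry4 -4.44). Socs1 averaged 35.7 in macrophages and 3.73 in Dox islets. It passed the filter on low values only through macrophages, so its place in that count is a description. In endothelial cells 2 of 11 tested were higher and 3 lower (Socs3 1.70, Spry4 1.34, Ptprj -2.73, Errfi1 -1.94). The medians of these 3 comparisons were 0.89, 0.03 and 0.06.

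Genes induced early by PDGF in cultured fibroblasts, which many other stimuli also induce, numbered 16. In Dox islets 0 of 15 tested passed limma's adjusted threshold, and 5 had an unadjusted p under 0.05, with a median of 0.48. The chemokine gene Ccl2 differed by 3.40 (adjusted p = 0.0572) and the transcription factor gene Egr2 by 1.74 (adjusted p = 0.0763). In macrophages against endothelial cells 15 of 16 were higher, beside 27.7% of all genes, and 1 was lower, beside 31.5% (Ccl2 8.93, Egr2 4.74, Fosl1 -3.69). All 15 tested were higher in macrophages than in Dox islets, beside 21.3% of all genes, led by Atf3 (5.33) and Ccl2 (4.10). In endothelial cells 6 of 16 were higher and 3 lower than in Dox islets (Nr4a1 2.16, Atf3 1.77, Ccl2 -4.82, Egr2 -2.14). The medians of these 3 comparisons were 1.99, 2.86 and 0.65, against -0.10, -0.20 and 0.004 over all genes. Cell type and the dispersal and sorting of the cells cannot be told apart in the comparisons with whole islets.

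Among 7 genes of the other class III receptor kinases and their ligands, 0 passed in Dox islets by limma's adjusted p and 4 had an unadjusted p under 0.05, with Kit at 1.79 (adjusted p = 0.0516) and Csf1r at 1.34 (adjusted p = 0.0945); the median was 1.01. In macrophages against endothelial cells the receptor genes Csf1r (9.44) and Flt3 (8.64) were higher. The ligand genes Kitl (-4.43) and Il34 (-2.09) were among the 3 that were lower. Against Dox islets the same receptors were higher in macrophages (Csf1r 4.74, Flt3 4.64), with Kitl (-3.20) and Il34 (-3.10) among the 3 lower. In endothelial cells Kitl was higher than in Dox islets (1.23) and Csf1r (-4.70) and Flt3 (-4.01) were among the 3 lower. The medians of these 3 comparisons were 0.12, -0.70 and -0.82.

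**Figure D5:**
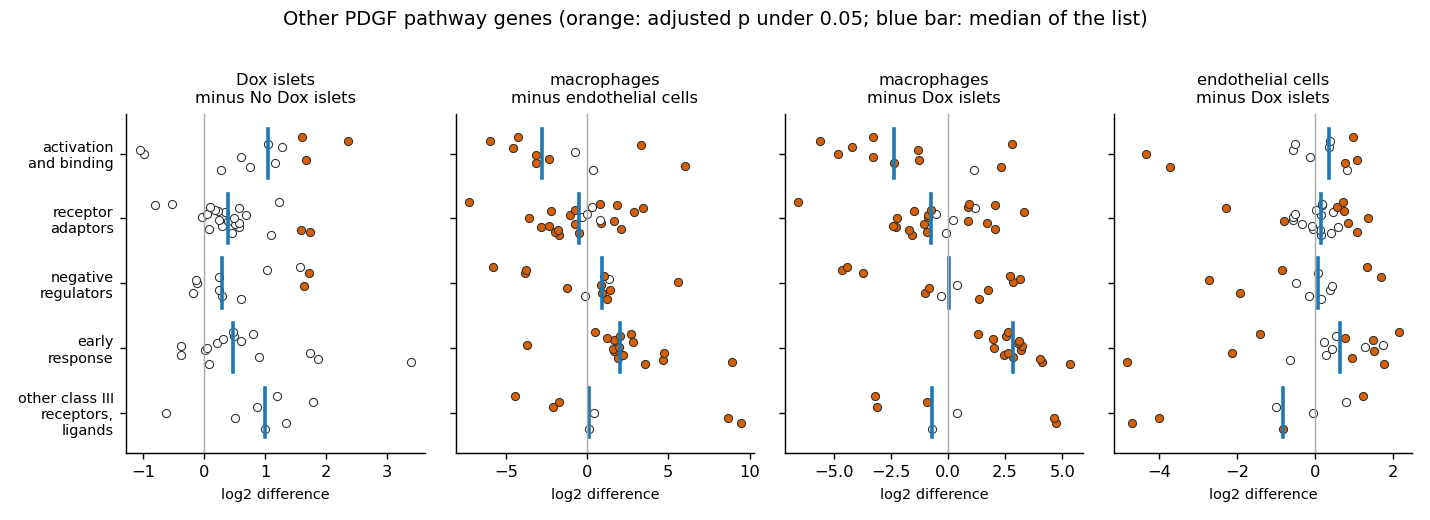
Log2 differences of the genes of the 5 PDGF-related lists in each comparison, 1 point per gene, with orange points past an adjusted p of 0.05 (limma) and a blue bar at the median of each list. In Dox islets the orange points are Sparc, Nrp2, Thbs1, Fyn, Gab1, Spry1 and Ptpn12, all above 0.

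The genes most like each PDGF gene were found by Pearson's r of log2(signal + 1) over the 12 libraries, among 14659 genes. These are descriptions: the libraries fall into 4 groups, share islets as their source and differ in cell type. Pdgfb was followed by Slc9a5 (r = 0.982), Rnf41 (0.976) and Hjurp (0.976). Pdgfd was followed by Srgap1 (0.993), Tanc1 (0.993) and the laminin gene Lama3 (0.991), each far higher in endothelial cells than in macrophages. Lama3 averaged 125 in macrophages, 19154 in endothelial cells, 4940 in Dox islets and 3369 in No Dox islets. Pdgfc was followed by Ticam2 (0.981) and the lectin gene Clec4a1 (0.978), both highest in macrophages. Pdgfa was followed by the transcription factor gene Foxf2 (0.964), Esyt2 (0.960) and 1110018J18Rik (0.953). Pdgfra was followed by Cilp (0.986), Smoc2 (0.982) and Zkscan16 (0.981). Pdgfrb was followed by Rasl12 (0.989) and by Notch3 (0.979) and Cspg4 (0.976), which are pericyte markers in the list above. Cspg4 averaged 213 in macrophages, 418 in endothelial cells, 2796 in Dox islets and 723 in No Dox islets.

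Ordered by group mean, neighbours overlapped at several steps. Pdgfa ran Dox islets, endothelial cells, No Dox islets, macrophages, where endothelial cells and No Dox islets overlapped. Pdgfc ran macrophages, Dox islets, No Dox islets, endothelial cells, and Pdgfd endothelial cells, Dox islets, No Dox islets, macrophages. No Dox islets overlapped endothelial cells for Pdgfc and Dox islets for Pdgfd. Pdgfra ran Dox islets, No Dox islets, macrophages, endothelial cells, with overlap inside the islet pair and inside the sorted pair. Pdgfrb ran Dox islets, No Dox islets, endothelial cells, macrophages, where endothelial cells overlapped both No Dox islets and macrophages.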

How the data were processed

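Whole islets and cells sorted from them were compared in 12 libraries, grouped by the labels. The deposited signal was normalised by the authors, in a way the labels do not describe. Per the submitters' processing notes, TopHat2 2.0 and the build mm9 were used, in roles those notes do not state. From the 22793 rows, 22711 genes remained, since only the row of highest mean signal was kept for a repeated symbol. Values were analysed as log2(signal + 1), in R 4.3.3 and limma 3.58.1, fitting each comparison to its 6 libraries with a variance trend and no replicate block. Genes needed a signal of 15.5, the 40th percentile, in at least 3 of the 6 libraries. P-values were adjusted over all genes by Benjamini-Hochberg, with a threshold of 0.05. Ratios were tested by two-sided exact permutation over libraries. The fit was tested on simulated data. RefSeq promoters were matched by symbol and searched for 4 of the 6 genes, not for Pdgfb or Pdgfrb. Those of Pdgfa and Pdgfra are not shown.

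The text names all 6 PDGF genes, the 3 genes most correlated with each (1 of them is not reported here), and up to 2 rises and 2 falls per pathway list and comparison; the other genes given with values were named after their values were seen. The members and lists were chosen with earlier results of these data known. Same-numbered macrophage and endothelial libraries deviated together (correlations over genes of 0.226, 0.409 and 0.361), so the block is given there where it changes a call. The labels do not state this pairing. Alternatives were other filters, pseudocounts, scalings and fits, removal of a GC trend, and leaving out libraries. The GC removal and the joint removal of both sorted replicates 3 were chosen after seeing the data.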

Additional observations from a re-analysis of the deposited data

How the results depend on the processing

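The 24 differences of PDGF genes had 16 alternatives or fewer each. Of 379 values, 347 kept direction and side of the threshold, 12 gained a call and 16 lost one. In both comparisons with Dox islets, the removal of sorted replicates 3 repeats the removal of 1 library, so those values count more than once. Of the 16 lost calls, 11 were of Pdgfa in Dox against No Dox islets, among its 16 alternatives there. The 4 that reversed were Pdgfb in macrophages against Dox islets, never called. They were 0.026 with quantile normalisation, 0.10 with median-ratio rescaling, 0.49 without Dox islet replicate 1 and 0.15 without macrophage replicate 2. On leaving out 1 library this difference ran from -0.41 to 0.49. Pdgfb over platelet markers ran from -0.011 (without Dox replicate 2) to 0.78 on leaving out 1 islet library.

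In islets, 829 genes were called as reported, 97 with no filter, 1606 with 4 groups fitted together, 301 with no variance trend, 1571 with the GC trend removed and 301 without Dox replicate 1 and No Dox replicate 2. Leaving out 1 library gave 5 (without Dox replicate 2) to 801. Of the 6 PDGF genes 1 was called as reported. The count was 0 with no filter, quantile normalisation, median-ratio rescaling, no variance trend or both those libraries left out, 2 with a stricter filter, a pseudocount of 16 or 4 groups fitted together, and 3 (Pdgfa, Pdgfc, Pdgfrb) with the GC trend removed. It ran from 0 to 1 on leaving out 1 library. Endothelial cells against Dox islets gave 4706 genes, and 2301 (without Dox replicate 3), 2994 (without Dox replicate 2) to 7156 (without Dox replicate 1) on leaving out 1 library; with no filter Pdgfa (adjusted p = 0.0847, limma) and Pdgfb (0.0794) lost their calls. The causes were not tested.

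With the replicate block, islets gave 679 genes and 0 PDGF genes (Pdgfa adjusted p = 0.0828, limma), macrophages against endothelial cells 8676 and 5, macrophages against Dox islets 8070 and 5, and endothelial cells against Dox islets 5193 and 6. Same-numbered islet libraries correlated at -0.25, -0.539 and 0.161. Dox replicate 1 and No Dox replicate 2, whose signal rose with GC, correlated at 0.781. With such a shared GC trend these correlations cannot decide whether the replicate numbers mark pairs. Library numbers in the header were consecutive within each same-numbered islet pair, and the labels state no pairing.

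Quantile normalisation moved the median of all genes to -0.03 in islets, as against 0.11, to 0.10 in macrophages against Dox islets, as against -0.20, and to 0.28 in endothelial cells against Dox islets, as against 0.00. Higher genes then made up 60.3% of the calls in islets (65.4% with median-ratio rescaling), as against 75.4%, 51.4% in macrophages against Dox islets, as against 40.3%, and 56.8% in endothelial cells against Dox islets, as against 34.7%. Read depth is unknown, so no counting error could be given for the low Pdgfra values of sorted cells.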
